A study of Arabidopsis thaliana with 6 samples.

Results

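ELIP1 (AT3G22840) and ELIP2 (AT4G14690) are the early light-induced protein genes of Arabidopsis thaliana, and they were taken by their gene identifiers from a table of 1537 genes. Both are in the table. They were compared between the wild type, Col-0, and the line BIC1-YFP, which carries BIC1 fused to a yellow fluorescent protein. Each genotype had 3 libraries of whole seedlings in the Columbia ecotype, grown for 10 days on half-strength Murashige and Skoog plates in long days and labelled biological replicates. No source used here gives the promoter that drives BIC1-YFP, the number of lines used or whether seedlings were pooled. The authors had already selected the 1537 genes as differing between the genotypes, so a gene outside the table was not analysed here, and is not shown to be unchanged.

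ELIPs are nuclear-encoded proteins of the chloroplast thylakoid membrane and distant relatives of the light-harvesting antenna proteins. They are made transiently when light is strong or when plastids green, bind chlorophyll and carotenoids, and are thought to hold free chlorophyll so that it does not sensitise the formation of reactive oxygen. In seedlings their transcripts are known to be induced by blue light through cryptochromes and by UV-B through UVR8, with the transcription factor HY5 acting downstream of both receptors. BIC1 is known as an inhibitor of cryptochrome, and it is also the brassinosteroid coactivator that the study is about.

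The genes lie on different chromosomes and have a like structure. In the RefSeq annotation of TAIR10.1, ELIP1 lies at chr3:8084405-8085669 on the minus strand and ELIP2 at chr4:8418242-8419325 on the plus strand. Each has 3 exons and 2 introns, a transcript of 1035 bases for ELIP1 and 909 bases for ELIP2, and a coding sequence of 588 and 582 bases. The coding sequences were identical at 78.9% of the positions aligned without a gap. The longest run of identical bases between the transcripts was 26, so a sequenced fragment longer than that differs between the genes at 1 or more positions. Neither the read length nor the handling of reads that match both genes is given by the labels.

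The 250 bases before each annotated transcript start are shown because both genes were lower in the same line. They are from the TAIR10.1 genome, written 5′ to 3′ on the gene's own strand, and capitals mark matches to the motifs searched. The ELIP1 window is chr3:8085670-8085919 (minus strand) and the ELIP2 window is chr4:8417992-8418241 (plus strand), and no other gene lies in either.
ELIP1: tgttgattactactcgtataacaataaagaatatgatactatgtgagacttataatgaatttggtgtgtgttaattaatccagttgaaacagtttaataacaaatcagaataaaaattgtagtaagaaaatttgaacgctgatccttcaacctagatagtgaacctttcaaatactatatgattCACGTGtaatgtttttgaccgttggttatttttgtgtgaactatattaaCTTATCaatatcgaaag
ELIP2: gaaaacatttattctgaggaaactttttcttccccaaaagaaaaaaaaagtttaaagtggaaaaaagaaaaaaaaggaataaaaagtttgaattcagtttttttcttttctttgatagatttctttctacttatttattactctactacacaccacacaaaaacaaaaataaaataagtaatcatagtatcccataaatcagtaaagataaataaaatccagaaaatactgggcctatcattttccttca
The motifs, searched on both strands, were the G-box CACGTG, its core ACGT, the I-box GATAAG, the brassinosteroid response element forms CGTGTG and CGTGCG, and TATAAA. The core lies inside the G-box, and the response element forms can overlap each other and the G-box. The ELIP1 window held 1 G-box, 66 to 61 bases before the start, and 1 I-box on the opposite strand, 17 to 12 bases before the start. The G-box is in 6.49% and the I-box in 12.3% of the 27437 windows of the same length before nuclear protein-coding genes. None of the motifs was in the ELIP2 window. The ACGT core is in 44.1%, TATAAA in 47.4%, CGTGTG in 5.37% and CGTGCG in 1.57% of all such windows. When the windows of ELIP1 and ELIP2 were aligned, 48.2% of the positions without a gap were identical, so the likeness of the coding sequences did not extend to them.

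The values are abundances per gene and library that the authors had normalized, and the sequencing depth behind them is unknown. BIC1 (AT3G52740), for which transcripts of the gene and the transgene cannot be told apart here, stood between 260 and 409 units in the wild-type libraries and between 14597 and 21868 units in the BIC1-YFP libraries. Of 6 green tissue markers, 3 were in the table, all Rubisco small subunit genes, which are close copies of each other. Their summed level was 574751 to 675538 units in the wild type and 392411 to 448000 in BIC1-YFP. Of 6 root markers, PRP1 and PRP3 were in the table, with a sum of 298 to 479 units in the wild type and 172 to 245 in BIC1-YFP. All 5 markers were called lower, by 1.46-fold to 2.33-fold, where 39.1% of all tested genes were called lower. None of the markers was at 0 in any library, and their part in the results below was not tested. Of 12 listed antenna genes, given below, 9 were called higher. PRP1 was not called when wild-type replicate 1 (limma, adjusted p = 0.053) or 2 (0.053) was left out. PRP3 was not called when wild-type replicate 1 (limma, adjusted p = 0.058) or 2 (0.063), or when BIC1-YFP replicate 2 (0.056) or 3 (0.057), was left out. In whole seedlings, fewer cells of a type and less RNA per cell cannot be told apart.

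ELIP1 fell in BIC1-YFP. Its abundance was 602, 447 and 439 units in wild-type replicates 1, 2 and 3, and 94.1, 97.9 and 69.7 units in BIC1-YFP replicates 1, 2 and 3. The highest BIC1-YFP library lay below the lowest wild-type library by a factor of 4.49. The means were 496 ± 91.8 and 87.2 ± 15.3 units (SD, n = 3), a 5.69-fold lower level that left 17.6% of the wild-type mean. On the scale log2(value + 1) the fold change was -2.49 (SE 0.22, 95% interval -3.02 to -1.97, limma, adjusted p = 0.0014).

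ELIP2 fell as well. Its abundance was 382, 231 and 426 units in wild-type replicates 1, 2 and 3, and 74.1, 65.7 and 104.7 units in BIC1-YFP replicates 1, 2 and 3. The genotypes did not overlap, and the lowest wild-type library was 2.21 times the highest BIC1-YFP library. The means were 347 ± 102 and 81.5 ± 20.5 units (SD, n = 3), a 4.25-fold lower level that left 23.5% of the wild-type mean. The log2 fold change was -2.05 (SE 0.30, 95% interval -2.76 to -1.35, limma, adjusted p = 0.0044).

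**Figure D1:**
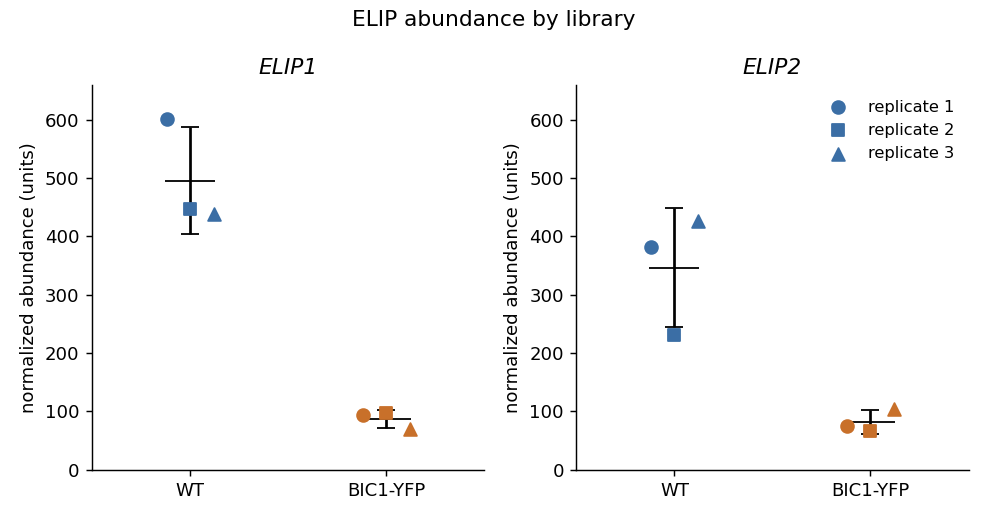
Normalized abundance (units as the authors deposited them) of ELIP1 and ELIP2 in each library, with the genotype on the horizontal axis; the marker shape gives the replicate, the long bar the mean and the whiskers the SD (n = 3). All BIC1-YFP libraries lie at 104.7 units or below and all wild-type libraries at 231 units or above.

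A call here means an adjusted p under 0.05 with limma over the 1531 genes with enough signal to test. Calls are common in this table by its making, with 76.6% of the tested genes called, 39.1% called lower and 37.6% called higher. Libraries that do not overlap between the genotypes are as common, at 76.0% of the tested genes and 39.0% in the lower direction. That ELIP1 and ELIP2 were both called is thus near the background of the table. ELIP1 had the 17th and ELIP2 the 44th most negative log2 fold change of the 1531 genes. The median log2 fold change of the 598 genes called lower was -0.90.

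**Figure D2:**
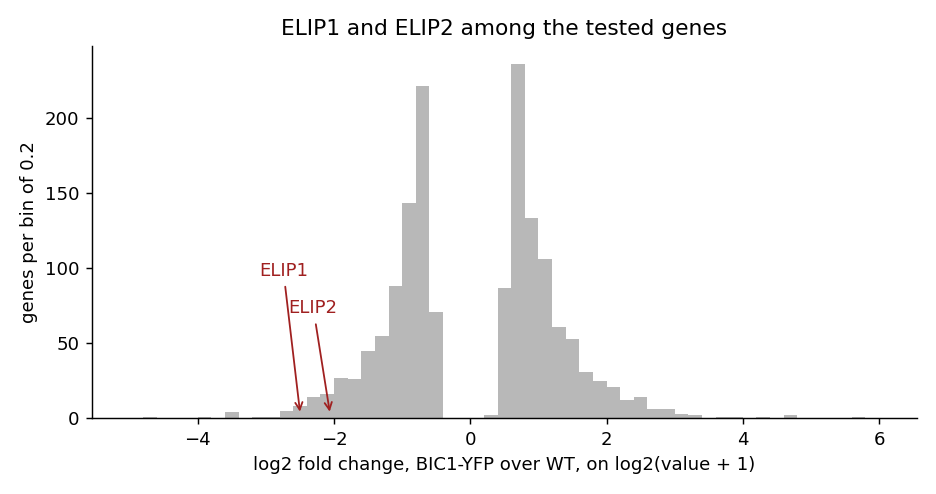
Number of tested genes (vertical axis) by log2 fold change of BIC1-YFP over the wild type on the log2(value + 1) scale (horizontal axis, bins of 0.2), with ELIP1 at -2.49 and ELIP2 at -2.05 marked. The gap around 0 is where the authors' selection left no genes.

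The adjusted p-values above count only the listed genes as tests. The p-values and adjusted p-values that the authors deposited imply at least 21574 tests. This number was computed only from genes whose deposited log2 fold change was not clearly larger in size than the log2 ratio of their means. Over that number, 3.27% of the tested genes were called and 1.63% were called lower. ELIP1 kept its call (limma, adjusted p = 0.020) and ELIP2 did not (limma, adjusted p = 0.062). In the authors' deposited table the adjusted p was 5.94e-33 for ELIP1 and 8.69e-15 for ELIP2, from a test that no source used here names. The deposited log2 fold changes were -2.10 and -1.61 in the authors' deposited table. Both are smaller in size than the log2 ratio of the means in the same table, -2.51 for ELIP1 and -2.09 for ELIP2. For some other genes the deposited value was larger in size than the limma value, as for CAT2 (-0.872 against -0.621). An exact permutation test (two-sided) on log2(value + 1) gave p = 0.1 for each gene, the smallest that 3 against 3 libraries allow.

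Whether ELIP1 and ELIP2 changed by different factors could not be settled with 3 libraries per genotype. The ratio of ELIP1 to ELIP2 abundance was 1.57, 1.94 and 1.03 in wild-type replicates 1, 2 and 3, and 1.27, 1.49 and 0.666 in BIC1-YFP replicates 1, 2 and 3. These ranges overlap widely, though for each replicate number the ratio was lower in BIC1-YFP than in the wild type. The log2 ratio averaged 0.55 ± 0.46 in the wild type and 0.11 ± 0.61 in BIC1-YFP (SD, n = 3), a difference of -0.44 (exact permutation test, two-sided, p = 0.4). The test cannot go below 0.1, so this does not show that the genes respond alike. Taken as pairs by number, the libraries gave p = 0.25 (exact sign-flip test), the smallest that 3 pairs allow. Without BIC1-YFP replicate 3 the difference was -0.09, and without wild-type replicate 2 it was -0.24. Without wild-type replicate 3 it was -0.69, and without BIC1-YFP replicate 2 it was -0.67. In both genotypes replicate 3 had the lowest ELIP1, the highest ELIP2 and so the lowest ratio. BIC1 itself was highest in BIC1-YFP replicate 3 and, among the wild-type libraries, lowest in replicate 3.

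**Figure D3:**
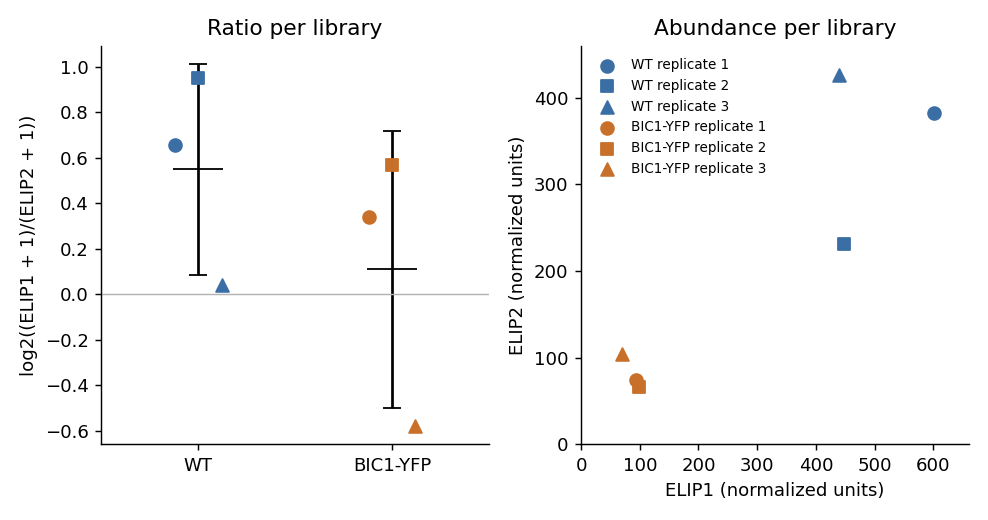
Left, log2 of the ELIP1 to ELIP2 ratio per library by genotype (bar, mean; whiskers, SD; n = 3), where replicate 3 (triangle) is lowest in both genotypes, at 0.04 and -0.58. Right, ELIP2 against ELIP1 abundance in normalized units for the 6 libraries, where the genotypes form separate groups.

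Levels of the genes can be set against each other only per length, and the values were taken not to be per length already. The values themselves bear on this only in replicate 1 of each genotype, so the levels per kilobase rest on that assumption. Divided by transcript length, the wild type held 479 ± 88.7 units of ELIP1 and 381 ± 113 units of ELIP2 per kilobase. BIC1-YFP held 84.3 ± 14.8 units of ELIP1 and 89.7 ± 22.6 units of ELIP2 per kilobase (SD, n = 3). Within each genotype the levels of the genes differed by less than these SDs add up to. The per-kilobase ratio of ELIP1 to ELIP2 ran from 0.904 to 1.70 over the wild-type libraries and from 0.585 to 1.31 over the BIC1-YFP libraries, so neither gene was higher in every library.

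The genes were next set beside the other genes of light harvesting and photoprotection. None of 7 other light-harvesting-like genes was in the table, among them OHP1, OHP2 and the energy-quenching gene PSBS. The only other gene with the same deposited description, a chlorophyll a/b binding family protein, was the antenna gene LHCB7 (AT1G76570). Its mean went from 347 ± 25.2 to 234 ± 23.2 units, a 1.48-fold fall that passed (limma, adjusted p = 0.024). LHCB7 was not called when wild-type replicate 1 (limma, adjusted p = 0.065) or 2 (0.052), or when BIC1-YFP replicate 1 (0.058) or 2 (0.062), was left out.

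Most listed antenna genes, which encode the proteins that collect light for the photosystems, had a higher mean in BIC1-YFP. Of 21 antenna genes 12 were in the table, and 9 rose, 2 fell and 1 did not pass, where 37.6% of all tested genes were called higher and 39.1% lower. Their median log2 fold change was 0.76. The median of all tested genes, 0.56, lies at the edge of the gap that the selection left around 0. It is therefore no measure of a typical change. LHCB2.2 (AT2G05070), of the main photosystem II antenna, rose from 405 ± 50.8 to 931 ± 226 units (limma, adjusted p = 0.0077). LHCB1.5 (AT2G34420) rose from 5494 ± 772 to 12124 ± 1278 units and LHCB2.3 (AT3G27690) from 200.5 ± 50.2 to 439 ± 101 units, 2.21-fold and 2.19-fold. Several LHCB1 and LHCB2 genes are near-identical copies that may share reads. LHCB3 (AT5G54270), a single gene of the same antenna, rose from 3708 ± 369 to 8065 ± 1610 units. The other fall was LHCB4.3 (AT2G40100), a minor antenna gene, which went from 5955 ± 212 to 3068 ± 259 units, or 1.94-fold down (limma, adjusted p = 0.0028). LHCB1.2 (AT1G29910), with 6527 ± 1585 and 9442 ± 2655 units, missed the threshold (limma, adjusted p = 0.084). It was called when BIC1-YFP replicate 3 was left out (limma, adjusted p = 0.046) or with replicate number as a block (0.0040). Over the 21574 tests LHCB1.5 and LHCB4.3 were the antenna genes called.

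Pigment and repair genes were few in the table. Of 19 chlorophyll synthesis genes only PORA (AT5G54190) was listed, a reductase of protochlorophyllide at 1.01, 2.61 and 1.21 units in the wild type and 13.0, 1.75 and 8.62 units in BIC1-YFP. It did not pass (limma, adjusted p = 0.077), and passed without BIC1-YFP replicate 2 (0.042). Of 13 carotenoid genes only BCH2 (AT5G52570), a beta-carotene hydroxylase, was listed. It rose from 65.4 ± 9.27 to 146 ± 48.0 units (2.23-fold). BCH2 was not called when wild-type replicate 1 (limma, adjusted p = 0.051) or 2 (0.053), or when BIC1-YFP replicate 2 (0.061), was left out. Of 12 genes of photosystem repair and related protection, FTSH5 (AT5G42270) and FTSH8 (AT1G06430) were listed, subunits of the thylakoid protease that removes damaged photosystem II protein. FTSH5 fell 1.47-fold, from 11630 ± 360.3 to 7906 ± 649 units, and FTSH8 fell 1.45-fold, from 2344 ± 197 to 1621 ± 267 units. FTSH8 was not called when wild-type replicate 2 (limma, adjusted p = 0.061), or when BIC1-YFP replicate 1 (0.062) or 2 (0.073), was left out.

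Of 19 antioxidant genes 5 were in the table, of which 3 fell and 1 rose, with a median log2 fold change of -0.62. The share called is near that of all tested genes, 76.6%, so the count is no result about the list. GPX7 (AT4G31870), a chloroplast glutathione peroxidase-like gene, stood at 90.3, 86.5 and 137 units in the wild type and at 20.0, 18.9 and 33.3 units in BIC1-YFP. The libraries did not overlap, and its 4.35-fold fall was close in size to that of ELIP2 (log2 fold change -2.09, SE 0.32, limma, adjusted p = 0.0048). VTE1 (AT4G32770), the tocopherol cyclase of vitamin E synthesis, fell from 634 ± 67.4 to 323 ± 45.6 units. CAT2 (AT4G35090), a catalase of leaf peroxisomes, fell 1.52-fold. APX1 (AT1G07890), the cytosolic ascorbate peroxidase, rose 1.53-fold. ZAT12 (AT5G59820), a zinc finger regulator of stress responses, had 311 ± 105 and 622 ± 385 units and missed the threshold (limma, adjusted p = 0.093). It was called with replicate number as a block (limma, adjusted p = 0.0060).

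Among 18 photoreceptor and light signalling genes, 3 were in the table, with 2 falls and 1 rise, too few to set apart from the 76.6% of all tested genes that were called. Cryptochromes, UVR8, HY5 and HYH were not among them. RUP2 (AT5G23730), a repressor of UVR8 that light induces, fell from 232 ± 33.5 to 131 ± 7.10 units (1.77-fold). BIC2 (AT3G44450), the paralog of BIC1, fell from 463 ± 221 to 171 ± 58.9 units with overlapping libraries. BIC2 was not called when wild-type replicate 1 (limma, adjusted p = 0.0996) or 2 (0.093), or when BIC1-YFP replicate 2 (0.077) or 3 (0.094), was left out. BBX24 (AT1G06040), a B-box protein that opposes HY5, rose from 448 ± 83.4 to 765 ± 67.5 units, but was not called when BIC1-YFP replicate 2 was left out (limma, adjusted p = 0.052). The list had 1 call without that library.

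Of 12 other genes known to be induced by blue, UV-B or strong light 9 were in the table, all with a lower mean in BIC1-YFP. Of these 8 fell, where 39.1% of all tested genes were called lower. CHS, CHI, F3H and FLS1 are enzyme genes of flavonoid synthesis, and MYB12 and PAP1 are regulators of it, so the 8 are not separate cases. The list was chosen with earlier results of these data known. The 9 genes had a median log2 fold change of -1.50, where the 598 genes called lower had a median of -0.90. The ELIP genes had a larger fold change than all of these but GPX7, which lies between them. UGT84A1 (AT4G15480), a glucosyltransferase of hydroxycinnamates, fell from 133 ± 52.1 to 37.7 ± 14.8 units (3.54-fold). The flavonoid enzyme genes F3H (AT3G51240) and CHS (AT5G13930) fell 3.15-fold and 3.02-fold, CHS from 12860 ± 2005 to 4253 ± 140 units. SIG5 (AT5G24120), a chloroplast sigma factor induced by blue light, had 231 ± 56.3 and 149 ± 26.9 units and missed the threshold (limma, adjusted p = 0.052). It was called when wild-type replicate 3 (limma, adjusted p = 0.032) or replicate 3 of both genotypes (0.034) was left out. Median-ratio scaling (limma, adjusted p = 0.035) and replicate number as a block (0.025) also called it. The regulator genes MYB12 (AT2G47460) and PAP1 (AT1G56650) were among the 8. MYB12 was not called when wild-type replicate 1 (limma, adjusted p = 0.063) or 2 (0.059), or when BIC1-YFP replicate 2 (0.063), was left out. PAP1 was not called when wild-type replicate 1 (limma, adjusted p = 0.099) or 2 (0.105), or when BIC1-YFP replicate 2 (0.077) or 3 (0.097), was left out. Over the 21574 tests, CHS, F3H, FLS1 and CHI were still called.

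**Figure D4:**
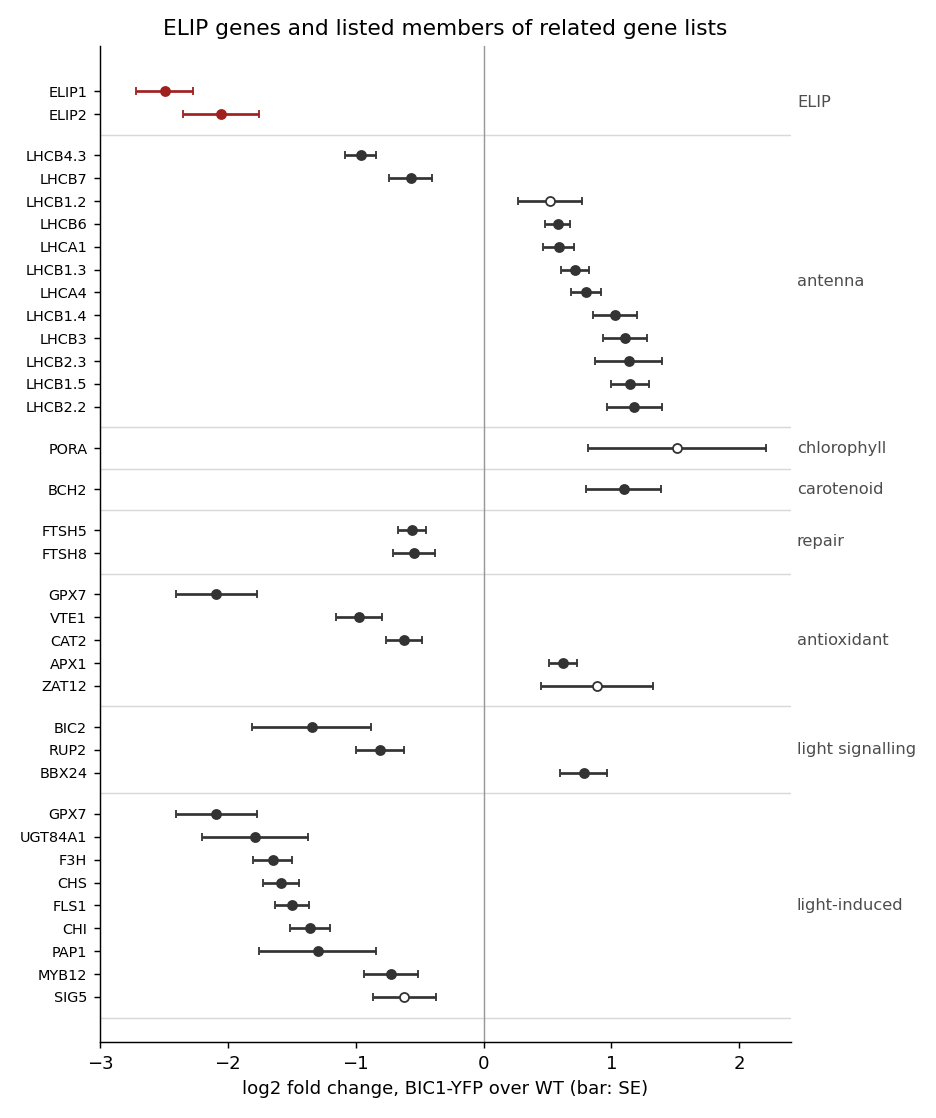
Log2 fold change of BIC1-YFP over the wild type on the log2(value + 1) scale (horizontal axis; bars, limma SE) for ELIP1, ELIP2 and every tested member of the related gene lists, with list names at the right; filled points were called at an adjusted p under 0.05 and open points were not. The ELIP genes lie at -2.49 and -2.05, most antenna genes between 0.52 and 1.18, and the light-induced genes between -2.09 and -0.62; GPX7 is in both the antioxidant and the light-induced list.

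The genes whose pattern over the 6 libraries was most like that of each ELIP gene differed between the genes. Likeness was measured by the root mean square difference of log2(value + 1) profiles, each centred on its own mean, so that both the size of the change and the spread within a genotype count. All these profiles share the same libraries and the same difference between the genotypes, so high correlations are a property of the table. The measure also favours genes with a like rise or fall in replicate 3, so sharing it with an ELIP gene is no separate result. For ELIP1 the nearest 5 were the acyltransferase gene AT1G03940, UF3GT (AT5G54060), TT7 (AT5G07990), PDF1.2 (AT5G44420) and DFR (AT5G42800), at 0.23 to 0.28 log2 units with Pearson r of 0.97 to 0.99. AT1G03940, UF3GT, TT7 and DFR act in anthocyanin synthesis and decoration, and PDF1.2 is a plant defensin with near-identical copies that may share its reads. AT1G03940 stood at 241, 205 and 128 units in the wild type and at 43.1, 36.3 and 31.2 units in BIC1-YFP. Like ELIP1, it was lowest in replicate 3 of each genotype, and so were UF3GT, PDF1.2 and DFR.

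For ELIP2 the nearest 5 were GPX7, AT2G25510, MYB90 (AT1G66390), AT3G06436 and ABCB13 (AT1G27940), at 0.21 to 0.28 log2 units with Pearson r of 0.97 to 0.98. MYB90, also called PAP2, is a regulator of anthocyanin genes and ABCB13 an ABC transporter gene. MYB90 stood at 31.1, 28.1 and 39.0 units in the wild type and at 8.01, 4.34 and 9.02 units in BIC1-YFP. Like ELIP2, MYB90, GPX7 and AT3G06436 were highest in replicate 3 of each genotype. AT3G06436 was near 0 in BIC1-YFP, at 0 to 0.0451 units, so no fold is given. ELIP2 was 52nd nearest to ELIP1, and ELIP1 was 46th nearest to ELIP2, at 0.49 log2 units (Pearson r = 0.92).

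**Figure D5:**
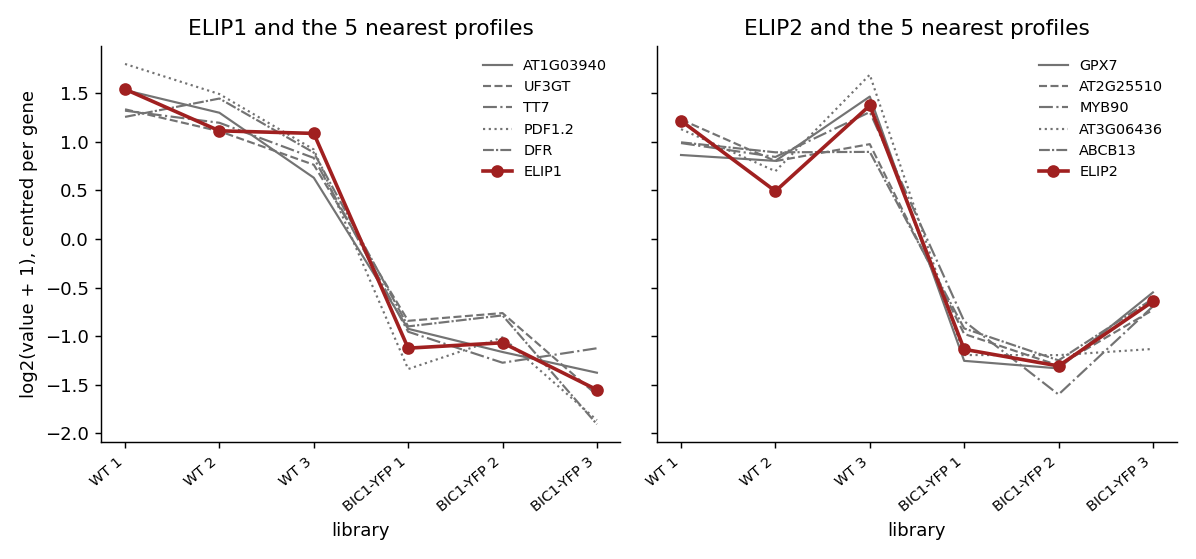
Centred log2(value + 1) (vertical axis) in each of the 6 libraries (horizontal axis) for ELIP1 (left) and ELIP2 (right) in red, with the 5 nearest profiles of each in grey. ELIP1 and most of its neighbours are lowest in BIC1-YFP replicate 3, where ELIP2 and its neighbours are at or near their highest BIC1-YFP value.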

How the data were processed

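Per the labels' protocols, RNA of 6 libraries was sequenced on an Illumina HiSeq. The submitters' processing notes name TAIR10 and Cufflinks, with aligner, counter, scaling and test not given in the sources used here. As the file shows, the authors deposited a normalized signal per gene and library, its mean per genotype, a log2 fold change and p-values before and after adjustment. Values under 15 within 0.05 of a whole number made up 95.2% and 100% in replicate 1 of the wild type and of BIC1-YFP, and 5.24% to 7.61% in the other libraries. The values are therefore taken not to be per length in those 2 libraries, and in the other 4 because they share the table. Read counts could not be recovered in these 4, so no count test was run; depth is unknown. The planned design assumed FPKM or counts, and this signal was given the test meant for FPKM.

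Genes with at least 1 unit in 3 or more libraries (1531 of 1537) were compared on log2(value + 1) in R 4.3.3 by limma 3.58.1, using a variance trend and no covariate, and Benjamini-Hochberg adjustment over the tested genes. Since the genes were selected as different in these libraries, calls are not independent of that selection. The procedure was run on simulated counts with known fold changes in some genes. That setting is unlike this table of preselected genes, so it does not check the calls made here. The members and the 10 gene lists (132 genes) were chosen with earlier results of these data known. Named genes were ELIP1, ELIP2, BIC1, up to 4 listed members per list with the largest change, and the 5 nearest profiles per member. LHCB7, LHCB4.3, LHCB1.2, APX1, MYB12, PAP1, SIG5, FLS1 and CHI fall outside this rule and were named after their values were seen. Replicates are labelled biological; what was shared between them is not given. Sequences are from RefSeq TAIR10.1, read by locus tag, and aligned with Biopython 1.88.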

Additional observations from a re-analysis of the deposited data

How the results depend on the processing

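The log2 fold changes of ELIP1 and ELIP2 stayed negative under every alternative run. With 1 library left out, ELIP1 ranged from -2.58 to -2.34 (limma, adjusted p at most 0.012) and ELIP2 from -2.32 to -1.88 (at most 0.023), and both stayed called. Adjusted over 21574 tests, ELIP2 (-2.05) lost its call, the listed genes kept 50 calls, and the lists kept 2 antenna, 4 light-induced, 0 carotenoid, 0 repair, 0 antioxidant and 0 light signalling calls; this setting only raises the number of tests. With the deposited p-values all 1537 listed genes were called, because the authors had selected them so. The 1 call of the chlorophyll list in that setting is therefore no result. With 1 library left out, calls numbered 441 to 1219 over all tested genes against 1173, 1 to 3 in the light signalling list, 0 to 1 in the chlorophyll and in the carotenoid list, and 1 to 2 in the repair list; why the libraries differ was not tested. The difference between the changes of ELIP1 and ELIP2 ranged from -0.69 to -0.09 with 1 library left out; none of its tests could reach 0.05 with so few libraries. Of the 47 genes named beside them or in their lists, 43 were called, where 76.6% of all tested genes were called. The nearest profiles among the 47 were picked for likeness to called genes, so this count is no separate result. Of the 43, 33 stayed called without any 1 library, and 33 lost their call over the 21574 tests. None of the 47 changed sign in any alternative. Pseudocounts of 0.5 and 5, no filter, a minimum mean of 10, both scalings, no variance trend and, chosen after seeing the data, replicate 3 of both genotypes left out (ELIP1 -2.42, ELIP2 -2.07) kept the calls of ELIP1 and ELIP2. Median-ratio scaling shifted the median log2 fold change by -0.08 and equal sums by 0.03. The deviations of same-numbered libraries correlated at 0.418, 0.0436 and 0.442 for numbers 1, 2 and 3. Wild-type replicate 3 with BIC1-YFP replicate 1 gave -0.396, and wild-type replicate 1 with BIC1-YFP replicate 3 gave -0.435. Replicates 1 and 3 thus deviated alike in both genotypes, while BIC1-YFP replicate 2 correlated best with wild-type replicate 1 (0.0903). No label says that the numbers pair the samples, so the main test was unpaired. With the replicate block, ELIP1 (-2.49) and ELIP2 (-2.05) were called (limma, adjusted p = 4.5e-04 and 6.8e-04), calls rose from 1173 to 1445, and a sign-flip test of the difference gave an exact p = 0.25, the smallest 3 pairs allow. DESeq2 was planned for raw counts only and was not run.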
